A study of Mus musculus with 8 samples.

Results

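The somatostatin system was measured in cells sorted as tdTomato-labeled SST neurons of the tuberal nucleus (TN) of the hypothalamus. It comprised 7 genes: the peptide precursors *Sst* and *Cort* and the receptors *Sstr1* to *Sstr5*. They were chosen by name, not by their values, as the known mouse genes of the ligands and receptors, and are 7 of 35968 annotated genes to which the deposited transcripts were joined, of which 25276 had any count. By the study, the sequencing was to ask whether these neurons can respond to estrogens or to adipose signals, and its groups are the sexes. It holds bulk RNA sequencing (Flow-Seq) of flow-sorted cells from 4 female and 4 male mice, with 1 library per mouse.

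All 8 mice carried a single *Sst-Cre* allele (Ssttm2.1(cre)Zjh/J / +), were kept on a C57BL/6J background by the study's methods, and received AAV2-flex-tdTomato, a Cre-dependent red reporter, in the TN on both sides. By those methods females were cycling and males gonadally intact, and the reporter was given some weeks before dissection, dissociation and sorting of live red cells. The methods call injected mice adult, and the age of these 8 mice was not given in the sources used here. Cre is expressed from the *Sst* locus itself, so the sort selected cells that held Cre from that locus after the reporter was given. A high *Sst* level in the sorted cells follows from the sort. No library of unsorted tissue was analysed here. Estimated counts summed to between 7.83 and 17.6 per mouse in units of 1000000, and a count of 3, used as the limit of detection, corresponded to between 0.148 and 0.458 counts-per-million values (CPM).

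Somatostatin and cortistatin are small cyclic peptides cut from larger precursors. Both bind the same family of G protein-coupled receptors, which act through inhibitory G proteins to lower cyclic AMP, open potassium channels and close calcium channels, and so silence cells and restrain secretion. In the hypothalamus, somatostatin is known as the brake on growth hormone release and as a transmitter of inhibitory neurons, and a receptor on a somatostatin neuron can act as an autoreceptor.

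The likeness of the 2 ligand genes near the end of their coding sequences is shown here because it bears on whether reads of *Cort* could be taken for *Sst*. The bases below come from the last part of each coding sequence, 5′ to 3′ on the minus strand of GRCm38 (mm10), at chr16:23889732-23889773 for *Sst* and chr4:149125270-149125311 for *Cort*. The *Sst* stretch runs to the end of the coding sequence and the *Cort* stretch stops 3 bases before it. They cover 14 codons each, and capitals mark bases that are the same in both.
Sst: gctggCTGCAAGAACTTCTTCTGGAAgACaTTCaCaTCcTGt
Cort: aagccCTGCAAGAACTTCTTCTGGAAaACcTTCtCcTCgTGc
Of these 42 bases, 31 were identical, and 7 of the 14 codons were the same. None of the 31-base stretches of *Sst* or *Cort* transcripts occurred in a transcript of another gene. Among the receptors, *Sstr3* and *Sstr5* shared 11 such stretches with each other, 0.257% of those of *Sstr3* and 0.403% of those of *Sstr5*, and *Sstr1*, *Sstr2* and *Sstr4* shared none.

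*Sst* is also the textbook target of the cyclic AMP response element (CRE), the octamer TGACGTCA that binds CREB. The octamer was searched in RefSeq promoter windows (GRCm38.p6) that run from 250 bases before to 50 bases after each gene's start. The octamer reads the same on both strands. Of the members, 5 had a promoter entry, and the octamer was found in those of *Sst* and *Sstr2*. The 30 bases around each match are given 5′ to 3′ on the gene's strand, with the octamer in capitals, at chr16:23890874-23890903 (minus strand) for *Sst* and at chr11:113619258-113619287 (plus strand) for *Sstr2*.
Sst: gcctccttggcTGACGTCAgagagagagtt
Sstr2: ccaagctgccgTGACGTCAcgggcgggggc
The first base of the octamer lay 48 bases before the RefSeq start site of *Sst* and 58 bases before that of *Sstr2*. GENCODE starts *Sst* further upstream, so that by the GENCODE coordinates given below the *Sst* octamer lies inside the gene. Of 32851 promoter windows, 588 (1.79%) held the octamer. It was not in the windows of *Cort*, *Sstr4* or the 2 promoters of *Sstr3*, which says only that these letters are absent there. *Sstr1* and *Sstr5* had no entry.

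The 7 genes lie on 7 chromosomes of GRCm38. *Sst* (ENSMUSG00000004366.4) is at chr16:23889573-23890958 and *Cort* (ENSMUSG00000028971.4) at chr4:149125034-149126763, both on the minus strand. *Sstr1* (ENSMUSG00000035431.4, chr12:58211772-58214444), *Sstr2* (ENSMUSG00000047904.6, chr11:113619342-113626028) and *Sstr4* (ENSMUSG00000037014.4, chr2:148395344-148396767) are on the plus strand. *Sstr3* (ENSMUSG00000044933.3, chr15:78537008-78544685) and *Sstr5* (ENSMUSG00000050824.12, chr17:25489875-25497288) are on the minus strand. *Sstr2* lies within *Slc39a11*, a gene on the opposite strand, but their exons share 0 bases, and no other member overlaps a gene.

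Levels per length, in transcripts-per-million values (TPM), placed *Sst* far above every receptor and *Cort* near the limit of detection. *Sst* was measured at 1242, 1371, 1883 and 948 TPM in females 1 to 4 and at 1140, 1074, 950 and 898 TPM in males 1 to 4. The mean over the 8 mice, 1188 ± 324 TPM (SD), ranked 45 among all genes. Female 3 was the highest, and the range over mice was 2.10-fold. Cortistatin, a ligand best known from cortical interneurons, is encoded by *Cort*, for which 5 counts were assigned in female 3, 1 count in male 3 and 0 in the other 6 mice. In TPM this was 0.960 in female 3 and 0.272 in male 3. Only female 3, the deepest library, exceeded 3 counts, so *Cort* could not be compared between the sexes, and in the other mice a level under 0.244 to 0.458 CPM could not have been seen. These limits cover counting error only.

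Of the receptors, *Sstr1* and *Sstr2* were the most abundant. *Sstr1* was at 24.5, 27.3, 30.97 and 16.2 TPM in females and at 28.6, 23.3, 24.96 and 23.8 TPM in males. *Sstr2*, which encodes the receptor that mediates much of the action of clinical somatostatin analogs, was at 23.0, 23.5, 37.1 and 16.6 TPM in females and at 18.2, 17.4, 18.3 and 13.6 TPM in males. For both genes female 3 was the highest mouse. *Sstr4* stood below these, at 8.37, 13.2, 15.3 and 10.1 TPM in females and 5.54, 5.87, 6.08 and 6.86 TPM in males. *Sstr5*, known from the pituitary and pancreatic islets, and *Sstr3*, whose product resides in neuronal primary cilia, were low. *Sstr5* was at 1.28, 3.104, 2.43 and 1.27 TPM in females and 1.34, 2.91, 1.68 and 0.701 TPM in males. *Sstr3* was at 1.62, 1.75, 1.17 and 1.59 TPM in females and 1.94, 1.496, 1.88 and 0.844 TPM in males. Each of these 2 receptors rested on few counts, from 8 to 59 per mouse for *Sstr5* and from 17 to 51 for *Sstr3*.

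Steps between neighboring levels were tested within mice, since both genes of a pair come from the same library. Neighbors were set by mean TPM over the same 8 mice, so the pairs and their direction came from the values tested. The differences in log2(TPM + 0.1) between neighbors were compared by a 2-sided exact sign-flip permutation test, with Benjamini-Hochberg adjustment over 6 pairs, and the smallest p that 8 mice allow is 0.00781. *Sst* exceeded *Sstr1* 46.8-fold, *Sstr2* exceeded *Sstr4* 2.39-fold, *Sstr4* exceeded *Sstr5* 4.77-fold and *Sstr3* exceeded *Cort* 10.1-fold on this scale. Each of these 4 steps held in 8 of 8 mice (exact p = 0.00781, adjusted p = 0.0117). These p describe how evenly a step held over the mice and are not separate evidence for the order. A high *Sst* level also follows from the sort. The 0.1 added to TPM sets the size of the last step, since *Cort* was at 0 in 6 mice. Over the pooled sexes *Sstr1* and *Sstr2* did not differ beyond their spread (1.22-fold, *Sstr1* higher in 6 of 8 mice, exact p = 0.0625, adjusted p = 0.0750). This step passed without female 3 (adjusted p = 0.0375 in the same exact test) and from the first of the 2 blocks of values deposited per mouse alone (adjusted p = 0.0469). Neither did *Sstr5* and *Sstr3* (1.11-fold, *Sstr5* higher in 3 of 8 mice, exact p = 0.516). The mean levels of the pooled mice thus fell into the steps *Sst*, then *Sstr1* with *Sstr2*, then *Sstr4*, then *Sstr5* with *Sstr3*, and last *Cort*. By sex, *Sstr1* was between 1.34 and 1.75 times *Sstr2* in males and between 0.835 and 1.16 times in females. *Sstr1* was thus above *Sstr2* in every male.

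**Figure D1:**
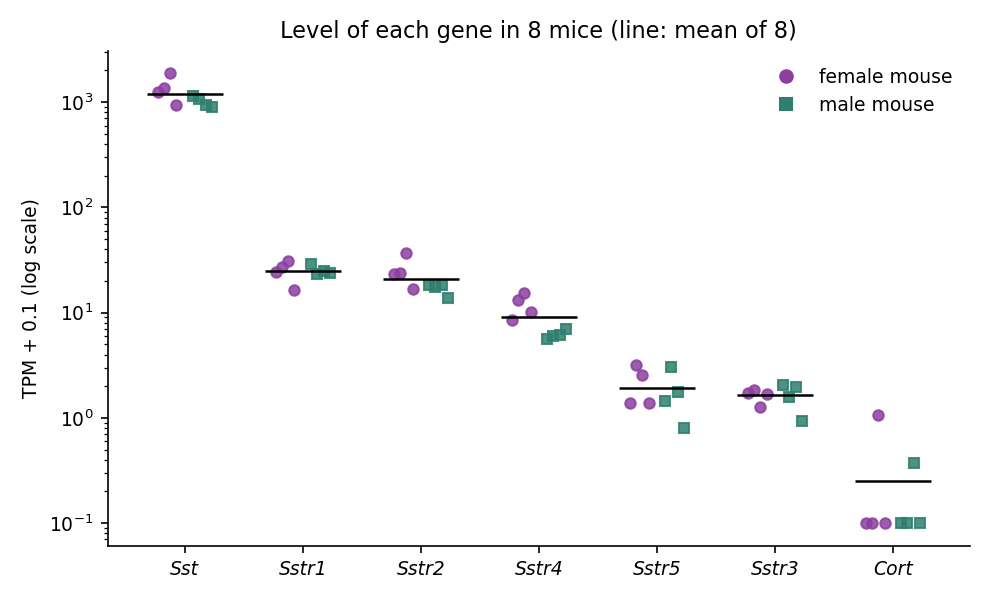
Level of each member in 8 mice. The y axis is TPM + 0.1 on a log scale, each point is a mouse (circles female, squares male) and each line is the mean of 8 mice, from 1188 TPM for *Sst* down to *Cort*, which was at 0 TPM in 6 mice.

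Within the receptors, *Sstr1* and *Sstr2* together held between 71.8% and 84.1% of the summed receptor TPM of a mouse, with a mean of 79.0%. *Sstr3* held between 1.34% and 3.55%, and *Sstr5* between 1.53% and 5.71%. The summed receptor level lay between 45.8 and 87.0 TPM. The ratio of *Sst* to this sum lay between 17.9 and 21.7 in every mouse, a narrower span than that of *Sst* itself.

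The share of *Sstr1* in the receptor pool differed in its values by sex, and the shares are given without a test. *Sstr1* held 41.7%, 39.7%, 35.6% and 35.5% in females, and 51.4%, 45.7%, 47.2% and 52.0% in males. The group means were 38.1 ± 3.07% and 49.1 ± 3.11% (SD, n = 4 mice each), and the ranges did not overlap. In CPM, a different measure, 10.4% of all genes tested showed no overlap in either direction. *Sstr2* held 39.2%, 34.1%, 42.7% and 36.3% in females and 32.7%, 34.2%, 34.6% and 29.6% in males, which overlapped. *Sstr4* held 14.2%, 19.2%, 17.6% and 22.0% in females and 9.96%, 11.5%, 11.5% and 14.98% in males, which also overlapped. Shares of a whole are tied to each other, so a higher share of *Sstr4* or *Sstr2* lowers that of *Sstr1*.

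**Figure D2:**
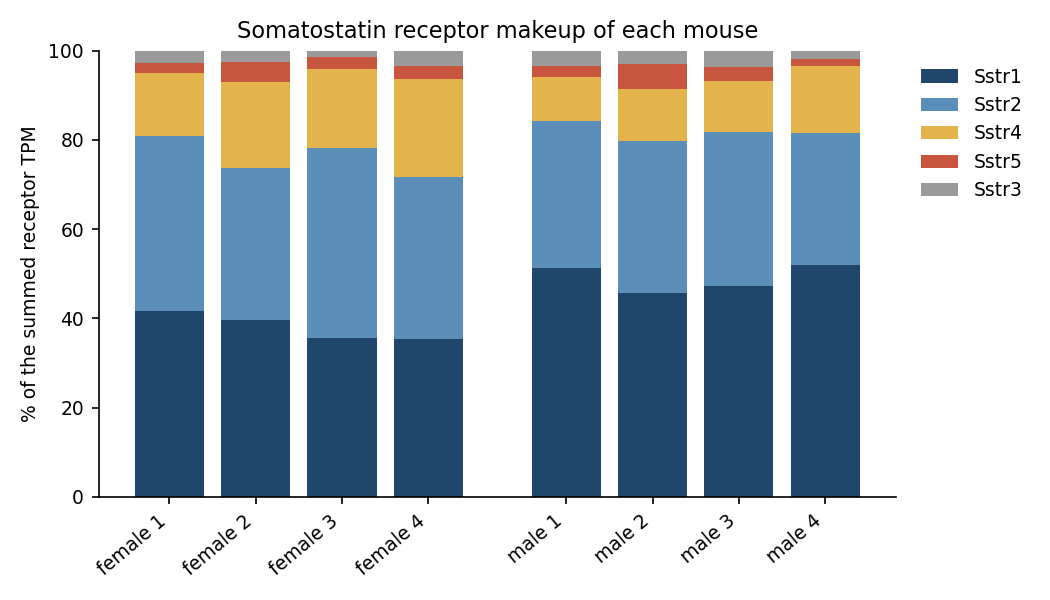
Share of each receptor gene in the summed receptor TPM of each mouse, in percent (y axis), with 1 bar per mouse. *Sstr1* takes 35.5% to 41.7% in the 4 females and 45.7% to 52.0% in the 4 males, and the shares were not tested.

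After these shares were seen, the ratios of all 15 pairs of the 6 members with enough counts were computed per mouse from TPM + 0.1, and they are given without a test. In 3 pairs, each of which includes *Sstr1*, the sexes did not overlap. *Sst* was between 50.1 and 60.6 times *Sstr1* in females and between 37.5 and 45.8 times in males. *Sstr1* was between 0.835 and 1.16 times *Sstr2* in females and between 1.34 and 1.75 times in males. *Sstr1* was between 1.61 and 2.91 times *Sstr4* in females and between 3.44 and 5.09 times in males. In the remaining 12 pairs the sexes overlapped, *Sst* to *Sstr2* among them, with ratios of 50.6 to 58.2 in females and 51.6 to 65.6 in males. Over the 115421221 pairs of all genes tested, 7.22% of ratios showed no overlap. From the first block alone *Sst* to *Sstr1* was the only pair without overlap. From the second block alone that pair overlapped, and *Sstr1* to *Sstr2* and *Sstr1* to *Sstr4* were the 2 without overlap, so no pair was separated in both blocks. With 4 mice against 4 the exact permutation p of a single ratio cannot go below 0.0286, before any adjustment for the 15 pairs.

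Each gene was then compared between the sexes in CPM, scaled by TMM, with edgeR's quasi-likelihood test over the 15194 genes that passed its filter on low counts. *Cort* did not pass, which left 6 members. At an adjusted p under 0.05, edgeR called 0 of the 6, where it called 0.158% of all genes tested. At an unadjusted p under 0.05 it picked out 2 of the 6, *Sstr2* and *Sstr4*, both higher in females, against 20.5% of all genes in either direction and 9.86% with females higher, and DESeq2 called 1, *Sstr4*, against 7.79% of the genes it tested. In bulk samples such as these, fewer cells of a type and less RNA per cell cannot be told apart.

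*Sstr4*, which encodes a receptor found mainly in brain, had the largest difference of the 6. Females 1 to 4 had 6.11, 10.4, 9.82 and 7.11 CPM, and males 1 to 4 had 4.15, 4.67, 4.38 and 5.29 CPM. Every female was above every male, a separation also seen in 10.4% of all genes tested in either direction and in 6.48% with females higher. Females averaged 8.35 ± 2.07 CPM and males 4.62 ± 0.493 CPM (SD over 4 mice). The log2 fold change, female minus male, was 0.85 ± 0.229 (SE), or 1.81-fold. It did not pass adjustment in edgeR (adjusted p = 0.115, rank 575 of 15194 by p) and passed in DESeq2 (log2 fold change 0.86 ± 0.281, adjusted p = 0.0353). The 2-sided exact permutation test gave p = 0.0286, the smallest that 4 mice against 4 can give. The values rest on between 42 and 199 counts per mouse.

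*Sstr2* was at 26.8, 28.3, 36.9 and 18.5 CPM in females and at 20.8, 21.6, 20.5 and 16.5 CPM in males. Of the females, 3 were above every male, and female 4 lay within the male range. The means were 27.6 ± 7.51 and 19.8 ± 2.28 CPM, and the log2 fold change of 0.48 ± 0.198 (SE) did not pass (edgeR adjusted p = 0.223, DESeq2 adjusted p = 0.163). *Sst* gave a similar picture at a higher level, with 396, 464, 526 and 292 CPM in females and 368, 369, 303 and 301 CPM in males. Again 3 females were above every male, while female 4 was the lowest of the 8 mice. Its log2 fold change of 0.32 ± 0.167 did not pass either (edgeR adjusted p = 0.302, DESeq2 adjusted p = 0.223).

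In CPM, *Sstr1* was the only member with a lower mean in females. It was at 24.2, 26.6, 26.4 and 15.5 CPM in females and at 29.2, 24.7, 23.8 and 24.2 CPM in males, so 3 females lay within the male range and female 4 below it. Its log2 fold change was −0.14 ± 0.176 (edgeR adjusted p = 0.687), and without female 4 it was 0.01. *Sstr3* and *Sstr5* overlapped widely between the sexes, from 2.47 to 4.58 CPM in females and 2.14 to 4.56 CPM in males for *Sstr3*, and from 1.80 to 5.04 CPM in females and 1.008 to 4.31 CPM in males for *Sstr5*. Their log2 fold changes of 0.28 ± 0.339 and 0.25 ± 0.496 (edgeR adjusted p = 0.663 and 0.809) have errors larger than the difference itself. That of *Sstr3* was −0.09 with an offset for transcript length, and that of *Sstr5* was −0.12 without female 2.

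By the edgeR log2 fold change, 5 of the 6 members were higher in females (median 0.30), whereas over all genes tested 49.4% were. In TPM the mean of *Sstr3* was 1.53 in females and 1.54 in males, so this count depends on the measure. Spread within a sex was moderate for *Sst*, *Sstr1*, *Sstr2* and *Sstr4*, whose SDs of log2 CPM stood between the percentiles 54.6 and 60.3 of all genes tested, and high for *Sstr3* and *Sstr5*, at the percentiles 70.9 and 87.3.

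**Figure D3:**
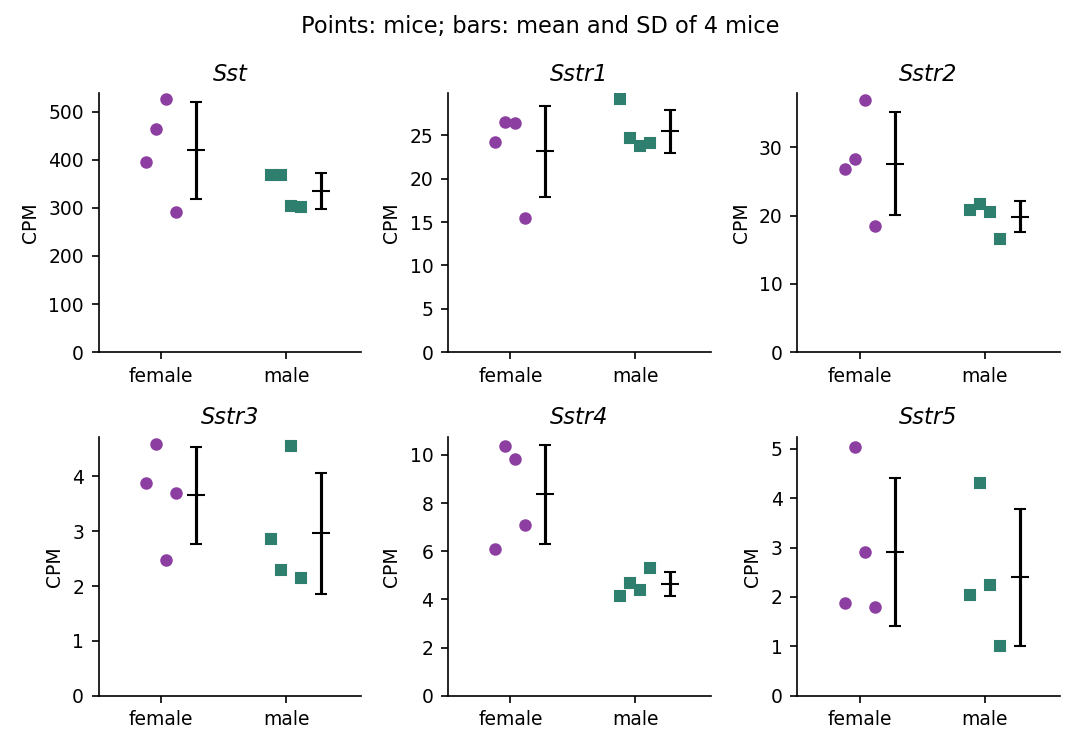
CPM of the 6 tested members by sex, with the y axis from 0 in each panel. Points are mice and bars are the mean and SD of 4 mice, and *Sstr4* is the only panel in which every female (6.11 to 10.4 CPM) lies above every male (4.15 to 5.29 CPM).

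The libraries also held RNA of markers of other cell types, whose means differed in direction by sex. All 8 neuron markers were present, with a summed level of 2626 to 3032 CPM in females and 2022 to 2614 CPM in males, and all 8 had a higher mean in females. *Snap25*, *Syt1* and *Rbfox3* did not overlap between the sexes, 3 of 8 beside 6.48% of all genes tested with females higher. The 8 microglia markers were also all present, none at 0, with a summed level of 286 to 1627 CPM in females and 652 to 3188 CPM in males, and all 8 had a lower mean in females. All 6 astrocyte markers (189 to 700 CPM in females and 491 to 759 in males, summed) and all 5 oligodendrocyte markers (458 to 2071 and 829 to 1817 CPM) also had a lower mean in females, as did 4 of 5 endothelial markers (21.5 to 68.6 and 26.4 to 78.1 CPM). edgeR called none of these 32 markers at an adjusted p under 0.05, though 3 neuron, 5 microglia, 1 astrocyte and 1 oligodendrocyte marker had an unadjusted p under 0.05, as did 20.5% of all genes. DESeq2 called the 3 neuron markers named and none of the others, where it called 7.79% of all genes. With the mean of the microglia markers as a covariate the log2 fold change of *Sstr4* was 0.69 ± 0.325 (SE, edgeR adjusted p = 0.666). Those of *Sstr2* and *Sst* were then 0.26 ± 0.226 and 0.12 ± 0.179. With the neuron mean *Sstr4* had 0.87 ± 0.463 (edgeR adjusted p = 0.963), *Sstr2* 0.50 ± 0.355 and *Sst* 0.30 ± 0.290. The summed neuron level did not overlap between the sexes, so in that fit sex and neuron level are hard to tell apart. The part of cell composition in these values was otherwise not tested. In male 2 the summed microglia level (3188 CPM) was above the summed neuron level (2022 CPM), as in male 4 (3091 and 2214 CPM). In the other mice it was below. The receptor levels, shares and ratios given here are those of the sorted cells as a whole. They were not assigned to a cell type.

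Over the 8 mice, *Sst* and *Sstr2* varied together. The genes most like *Sst* were ranked by Pearson r of log2 CPM among 9832 protein-coding genes with a mean of at least 10 CPM. *Mpc2*, a subunit of the mitochondrial pyruvate carrier, led with r = 0.981, followed by *Orc2* of the origin recognition complex (0.960), the zinc finger gene *Zfp866* (0.960) and the channel gene *Hcn3* (0.954). *Sstr2* was the fifth, with r = 0.946 and Spearman's rho of 0.976. Females 3 and 4 lay farthest from the median of *Sst*, and r among the other 6 mice was 0.894. Over the pooled mice the other receptors tracked *Sst* less closely, with r = 0.662 for *Sstr4*, 0.624 for *Sstr5*, 0.568 for *Sstr1* and −0.04 for *Sstr3*. Their order changed with the measure, since Spearman's rho was 0.714 for *Sstr5*, 0.690 for *Sstr1*, 0.452 for *Sstr4* and 0.190 for *Sstr3*. Within a sex, r with *Sst* was 0.944 in females and 0.689 in males for *Sstr1*, close to 0.979 and 0.697 for *Sstr2*. For *Sstr4* it was 0.682 in females and −0.504 in males. The lower r of *Sstr1* thus holds for the pooled mice and not within each sex. The low counts of *Sstr3* and *Sstr5* limit what r can show. These 8 points share their library scaling and include both sexes, each of which has few mice. Every r here is therefore given as a description with no test.

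**Figure D4:**
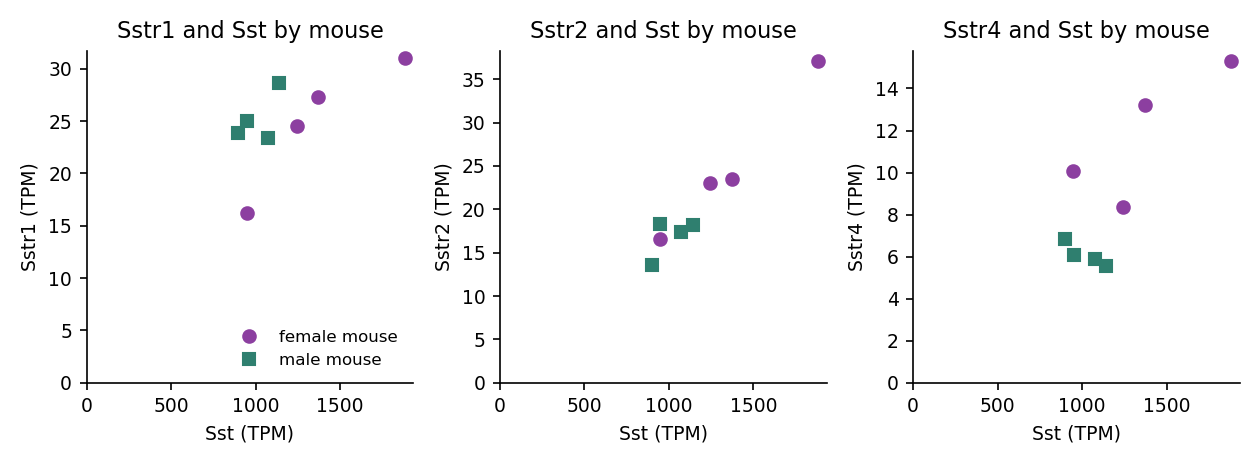
TPM of *Sstr1*, *Sstr2* and *Sstr4* (y axes) against TPM of *Sst* (x axis), with 1 point per mouse (circles female, squares male) and all axes from 0. *Sstr2* follows *Sst* over both sexes, whereas in the *Sstr4* panel the 4 females (8.37 to 15.3 TPM) lie above the 4 males (5.54 to 6.86 TPM).

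The genes most like *Sstr1*, the receptor with the highest mean TPM, were others. *Vps11*, a subunit of endosomal tethering complexes, had r = 0.976, *Fndc9* 0.964, *Chchd7* 0.962, *Chodl*, which encodes chondrolectin, 0.955, and *Lrrc24* 0.949. The 5 highest of 9832 genes over 8 mice include high values by selection alone.

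*Sst*, *Cort* and *Sstr4* each have a single annotated transcript. Of the others, the leading transcript held 99.2% of *Sstr2* counts, 99.0% of *Sstr3* counts and 76.3% of *Sstr5* counts. *Sstr1* was the only member with 2 transcripts of at least 10 mean counts each, each with 1173 coding bases. *Sstr1-202* held 58.2%, 87.9%, 66.0% and 55.2% of *Sstr1* counts in females and 46.9%, 58.5%, 68.4% and 72.5% in males. The ranges overlapped, with means of 66.8 ± 14.8% and 61.6 ± 11.4% (2-sided exact permutation test, p = 0.629).

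Beyond the receptors, 42 genes of the pathway were taken from lists by role, not by their change, and all 42 passed the filter. edgeR called 0 at an adjusted p under 0.05, beside 0.158% of all genes. It picked out 18 at an unadjusted p under 0.05 (10 higher and 8 lower in females), beside 20.5% of all genes, and DESeq2 called 9, beside 7.79%. The smallest edgeR adjusted p was 0.0655, for *Pcsk2*. In CPM, 7 genes had all females above all males and 4 had all males above all females, beside 10.4% of all genes in either direction. The median log2 fold change was 0.02, against −0.00434 for all genes tested. Without female 1 edgeR called 3 genes (*Pcsk2*, *Adcy2* and *Gnai2*) and without male 1 it called 2 (*Pcsk2* and *Adcy1*). In the same fits the calls over all genes went from 24 of 15194 to 415 of 15544 without female 1 and to 411 of 15516 without male 1.

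The inhibitory G proteins that the receptors activate were abundant. *Gnao1*, the alpha o subunit that dominates in brain, was at 585 ± 24.8 CPM in females against 497 ± 21.5 in males (SD over 4 mice), with a log2 fold change of 0.23 ± 0.0655 (SE). *Gnai2* went the other way, at 270 ± 37.7 and 368 ± 27.998 CPM (−0.45 ± 0.107), and so did *Gnai1*, at 118 ± 14.9 and 162 ± 15.1 CPM (−0.46 ± 0.105). In each of these 3 of the 5 alpha subunits listed the sexes did not overlap, beside 10.4% of all genes tested in either direction. None passed in edgeR (adjusted p = 0.123, 0.0943 and 0.0849), while all 3 passed in DESeq2, beside 7.79% of the genes it tested. The part of cell composition in these 3 differences was not tested. The alpha i2 and alpha i1 subunits are the other common transducers of the receptors.

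Of the targets of these G proteins, the 4 genes of inwardly rectifying potassium channels were all detected, 3 with a higher mean in females. *Kcnj6* was at 39.4 ± 3.14 CPM in females and 31.7 ± 3.48 CPM in males, without overlap (log2 fold change 0.31 ± 0.111, edgeR adjusted p = 0.179). *Kcnj9* and *Kcnj3*, which encode partner subunits, had log2 fold changes of 0.22 ± 0.125 and 0.26 ± 0.131. Of 8 adenylyl cyclases, the enzymes that make cyclic AMP, 6 had a higher mean in females and 3 of these did not overlap, beside 49.4% and 6.48% of all genes tested. Of the 6, *Adcy6* had a log2 fold change of only 0.000601. *Adcy2* was at 106 ± 12.9 and 75.2 ± 6.87 CPM (0.49 ± 0.107, adjusted p = 0.0798) and *Adcy1*, a calcium-stimulated form, at 31.4 ± 1.66 and 20.3 ± 3.90 CPM (0.63 ± 0.140, adjusted p = 0.0831). Both passed in DESeq2 only, which called 7.79% of the genes it tested. *Adcy5*, the most abundant, had a log2 fold change of 0.25 ± 0.0888 (adjusted p = 0.177).

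Genes that switch the receptors off, the arrestins and receptor kinases, showed no member of 6 without overlap. *Grk2*, at a mean of 129 CPM, and *Arrb1*, at 102 CPM, had log2 fold changes of −0.14 ± 0.0840 and 0.12 ± 0.117, and *Arrb2* had one of −0.46 ± 0.167 (adjusted p = 0.185). Of the tyrosine phosphatases that somatostatin receptors can engage, *Ptpn11* had a log2 fold change of 0.02 ± 0.0767. *Ptpn6*, which is also a gene of blood-derived and microglial cells, was at 16.2 ± 17.6 CPM in females and 53.8 ± 42.8 CPM in males (−1.74 ± 0.771, adjusted p = 0.242), with the same sign as the microglia markers.

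The enzymes that cut the precursors were detected throughout, and the 2 prohormone convertases lay on opposite sides. *Pcsk2* was at 210 ± 24.5 CPM in females and 137 ± 13.5 CPM in males (log2 fold change 0.61 ± 0.105). *Pcsk1* was at 41.6 ± 3.50 and 60.0 ± 12.1 CPM (−0.53 ± 0.142, adjusted p = 0.113). Neither overlapped between the sexes, and both passed in DESeq2 only, beside 10.4% of all genes without overlap and 7.79% called by DESeq2. *Pcsk1n*, which encodes an inhibitor of *Pcsk1*'s product, and *Cpe*, which trims the cut ends, were the most abundant of the 6 genes listed, at means of 832 and 404 CPM, with log2 fold changes of −0.16 ± 0.140 and 0.07 ± 0.0782.

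Of the 5 genes for factors that act at a CRE, *Crtc1*, a CREB coactivator of neurons, was higher in every female (111 ± 12.5 against 91.6 ± 5.60 CPM, 0.27 ± 0.0938, adjusted p = 0.174). *Creb1* itself had a log2 fold change of −0.03 ± 0.0816. *Crem*, some of whose products repress at the same element, had one of −0.82 ± 0.260 (8.88 ± 2.84 and 15.7 ± 3.94 CPM, edgeR adjusted p = 0.149). *Crem* passed in DESeq2 only (adjusted p = 0.0462), which called 7.79% of the genes it tested. Peptidases that break somatostatin down, 4 genes, showed no separation, with log2 fold changes of 0.11 ± 0.104 for *Thop1*, 0.12 ± 0.130 for *Nln*, −0.04 ± 0.217 for *Ide* and 0.52 ± 0.451 for *Mme*, the last at a mean of only 2.29 CPM.

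The growth hormone axis was represented by 2 genes with opposite signs. *Ghsr*, the ghrelin receptor gene, was at 18.0 ± 2.05 CPM in females and 28.7 ± 5.997 CPM in males, without overlap (log2 fold change −0.68 ± 0.173, edgeR adjusted p = 0.105, passed in DESeq2). *Ghrh*, which encodes the growth hormone-releasing peptide that somatostatin opposes, was at 11.3 ± 4.13 and 7.33 ± 0.838 CPM, with overlap (0.63 ± 0.270, adjusted p = 0.234).

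**Figure D5:**
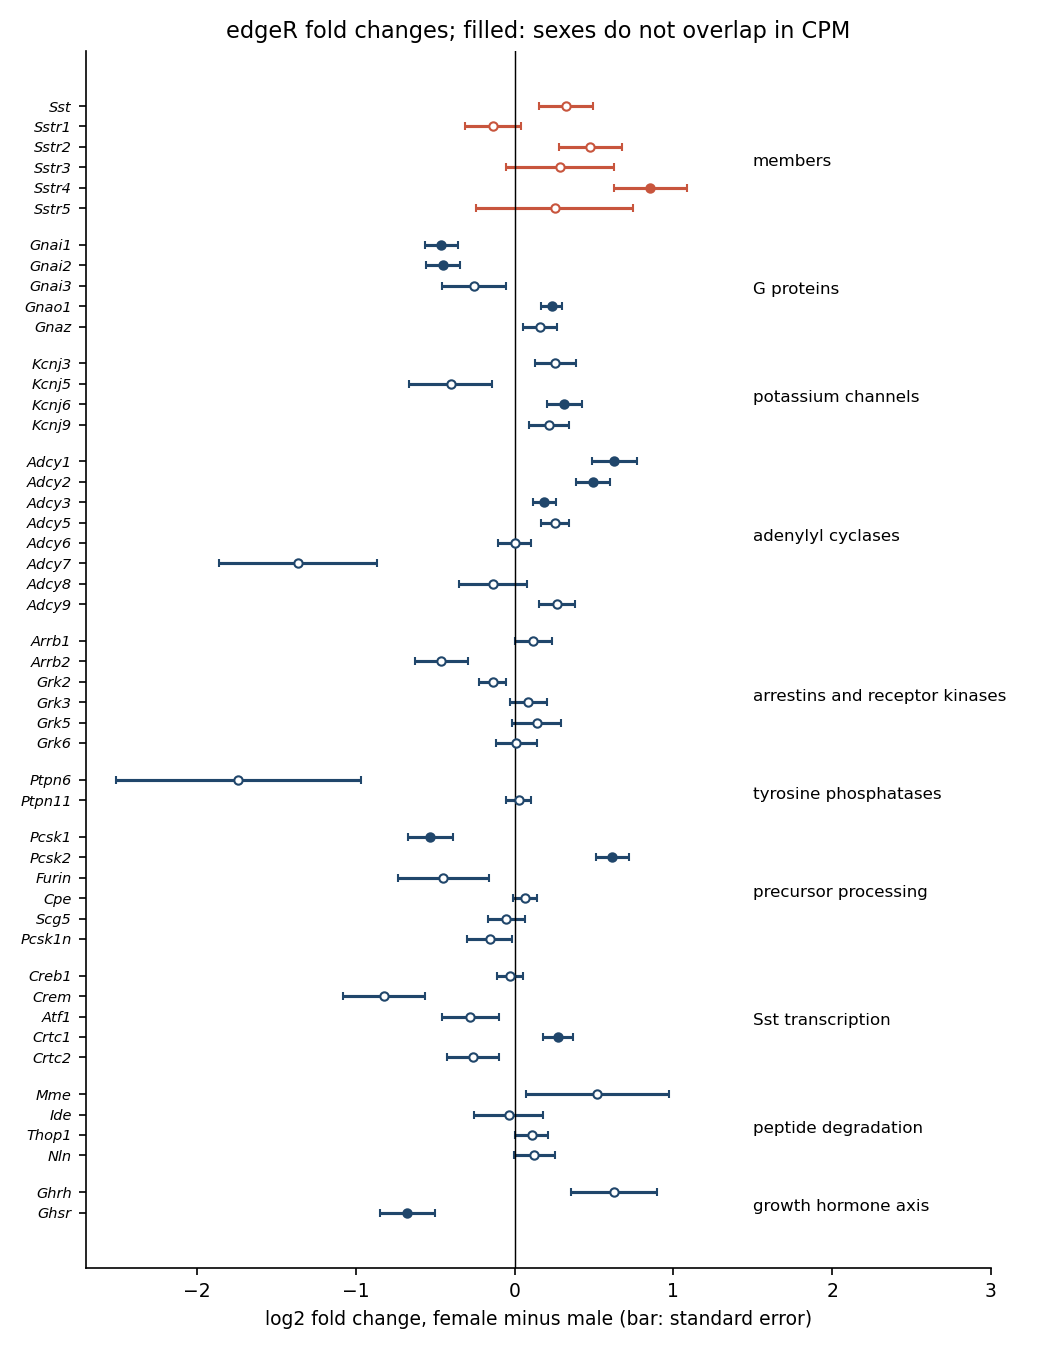
edgeR log2 fold change, female minus male (x axis), of the 6 tested members and the 42 pathway genes, grouped by role, with bars of 1 standard error. Filled points mark genes whose sexes do not overlap in CPM, which are *Sstr4* among the members and 11 of the 42 pathway genes.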

How the data were processed

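RNA of flow-sorted TN SST neurons was made into stranded total RNA libraries and sequenced single-end by the authors, who assigned reads to the mm10 transcriptome with kallisto 0.46.2. They deposited, per mouse and in 2 blocks of the same transcripts, estimated counts, not normalized, and TPM, which sums to 1000000 in each block. What the blocks are (runs or lanes, for example) was not given in the sources used here. The strand setting was not given in the sources used here. The deposited estimated counts of both blocks were summed, joined to GENCODE M21 genes (1761 transcripts, with 0.429% to 0.611% of a mouse's counts, had no match), summed per gene and rounded. TPM is the mean of the blocks, where the design had assumed a single value.

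The comparison of sexes used edgeR 4.0.16 in R 4.3.3 (TMM, filterByExpr, quasi-likelihood test, Benjamini-Hochberg over all genes tested, called at 0.05). DESeq2 1.42.0 was the alternative, and the authors used DESeq2 in Galaxy. Likeness used log2 CPM with a prior count of 2. Python 3.11.15, numpy 2.4.6, pandas 2.3.3 and scipy 1.17.1 gave the exact tests and plots. The fit was tested on simulated counts. No source says more of the replicates than that each is a mouse. The members, lists and tests were chosen with earlier results of these data known. The genes named are every member, for each pathway list the 2 with the highest mean CPM and the 2 with the smallest p, the 5 genes most like *Sst* and *Sstr1*, and genes overlapping a member. *Nln*, *Adcy6*, *Adcy7* and *Adcy8* were named after their values were seen, as were the ratios.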

Additional observations from a re-analysis of the deposited data

How the results depend on the processing

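The log2 fold changes of *Sst*, *Sstr2* and *Sstr4* kept their sign and an adjusted p above 0.05 in all 21 alternatives, except *Sstr4* in DESeq2 (0.86, adjusted p = 0.0353). Leaving out each mouse gave 0.19 to 0.46 for *Sst*, 0.30 to 0.63 for *Sstr2* and 0.74 to 0.98 for *Sstr4* (adjusted p from 0.0557 to 0.308). The sign turned for *Sstr1* without female 4 (0.011; leaving out each mouse gave −0.21 to 0.011), for *Sstr3* with a transcript length offset (−0.085), and for *Sstr5* from the second block alone (−0.26) and without female 2 (leaving out each mouse gave −0.12 to 0.69). The cause was not tested. DESeq2 called 1 member and 9 pathway genes, and leaving out a mouse gave 0 to 3 pathway genes and 0 members. The *Sstr1-202* share, 5.25 percentage points higher in females, ranged from −1.78 (without female 2) to 9.13 on leaving out a mouse, and was −10.4 from the second block alone and 19.0 from the first, so the split between the *Sstr1* transcripts was not stable. Of the 15 ratios, added after the data were seen, 1 had no overlap from the first block alone and 2 others from the second block alone. When a mouse was left out 3 to 7 had none, 7 without male 4. No share over all gene pairs was computed in these settings. With 3 mice against 4 the sexes separate more easily (smallest exact permutation p 0.0571), so these counts cannot be set against those from all mice. Of the 6 neighboring pairs in the order, 4 or 5 passed in each alternative, 5 from the first block alone and without female 3.

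Mice with the same number did not deviate together (r of −0.396, −0.156, 0.04 and 0.07 for numbers 1 to 4). Pairs with different numbers had r from −0.268 to 0.416, so these values cannot exclude that the numbers pair the mice. With a replicate block, edgeR called 0 members and 0 pathway genes, and *Sstr4* had 0.83 (adjusted p = 0.232). Depth limits *Sstr3*, *Sstr5* and *Cort*, whose counts were at most 59 in any mouse.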
